A study of Mus musculus with 18 samples.

Results

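Liver mRNA of diabetic mice given the gut microbiota of control animals was compared with that of healthy control mice, to show what still set the recipients' liver apart from healthy liver. The comparison used 6 of the 18 libraries of the series, 3 from Con-FMT mice and 3 from Con mice, and it was read over the 10159 of 19057 listed genes that averaged at least 1 RPKM in the 12 libraries fitted together (Con-FMT, Con and the HS and A10-FMT groups described next). RPKM is a read count scaled to transcript length and to the number of mapped reads.

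All animals were male ICR mice, an outbred stock, sampled at 10 weeks of age. Con mice ate regular diet and received saline. Con-FMT mice ate a high-fat diet, were injected once with streptozotocin (STZ), a toxin of the insulin-producing pancreatic beta cells, and were then given by mouth the frozen small-intestinal content pooled from donors that had been gavaged with water only. HS mice had the same diet and STZ without the transplant, and A10-FMT mice received instead the content of donors dosed with alginate oligosaccharide (AOS) at 10 mg/kg. AOS alone (A10) and AOS on top of diet and STZ (HS+A10) made up the remaining 2 groups. No group on regular diet received a transplant, so in Con-FMT against Con the effects of diet, STZ and transplant cannot be told apart, and the HS and A10-FMT values are given beside the results for that reason. The labels do not say that the 3 libraries of a group came from separate animals, so the p-values describe the spread between libraries, which may be partly technical.

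After a meal, insulin drives the liver to make fatty acids and, with falling cell sterol, the factor SREBP2 drives cholesterol synthesis. In fasting or insulin deficiency the liver turns to fatty acid oxidation, ketone bodies and glucose output, and glucocorticoids reinforce glucose output. Many of these genes also follow the daily feeding cycle through the hepatic clock, in which ARNTL and CLOCK activate the Per, Cry and Nr1d genes that in turn repress them.

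Of the libraries compared, 2 were unusual. Con-FMT replicate 3 carried pancreatic mRNA. The summed RPKM of the acinar cell markers was 33.28 to 41.82 in Con and 29.98, 38.93 and 28920 in Con-FMT replicates 1, 2 and 3, and these genes made up 4.126% of all RPKM in that library against at most 0.006856% in each of the other 17 libraries. Chymotrypsinogen B (Ctrb1) stood at 0.58, 0.42 and 3835 RPKM in the 3 Con-FMT libraries. The same library listed insulin (Ins1) at 7.8 RPKM and adiponectin (Adipoq) at 2.44, against 0 to 0.06 in the other 5 libraries. All 31 acinar markers that were tested lay more than 1 log2 unit above both other Con-FMT libraries, and 0 of them were called by limma. Of the Con libraries, replicate 3 lay between replicates 1 and 2 for 821 of the 862 genes at which those differed by more than 0.5 on the log2 scale (95.2%), with a median position of 0.504 on the way from one to the other. A library near the midpoint of the others narrows the Con spread, and the counts are therefore also given without it. The hepatocyte markers summed to between 68530 and 90930 RPKM in Con and between 62860 and 83000 in Con-FMT.

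**Figure D1:**
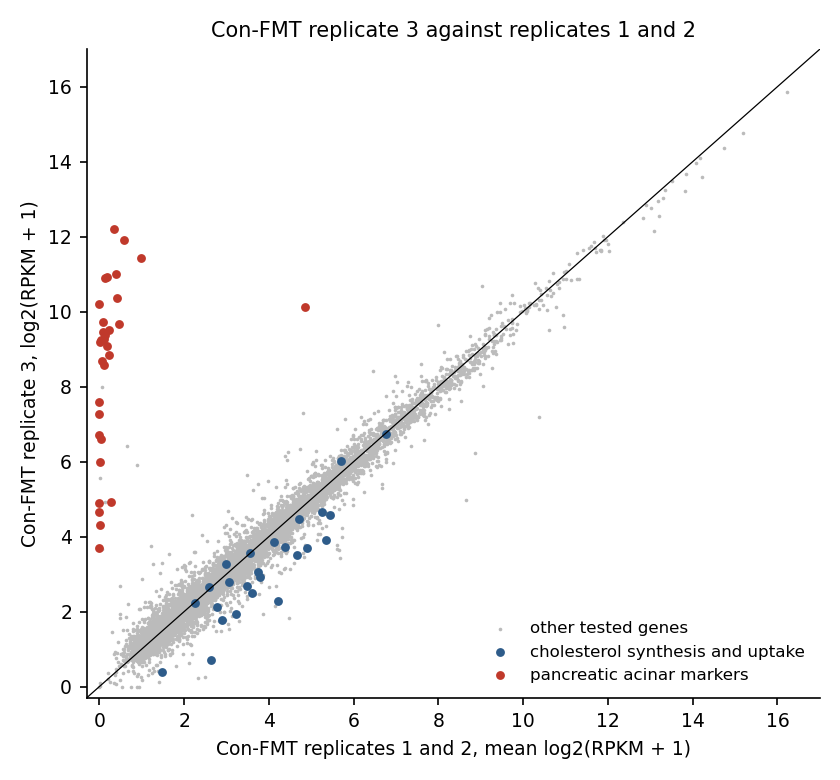
Con-FMT replicate 3 (vertical axis) against the mean of Con-FMT replicates 1 and 2 (horizontal axis), both as log2(RPKM + 1), with 1 point for each of the 10159 tested genes and the diagonal marking equal values. The 31 acinar markers (red) rise far above the diagonal, and genes of cholesterol synthesis and uptake (blue) mostly lie below it.

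Con-FMT liver differed from Con liver at 2069 of the 10159 genes (20.4%) at an adjusted p under 0.05, of which 1139 were higher (11.2%) and 930 lower (9.15%) in Con-FMT. The change was at least 2-fold on the log2(RPKM + 1) scale for 225 of the higher and 175 of the lower genes. The 3 libraries of one group lay entirely on one side of the other's for 3999 genes (39.4%). The median change over all tested genes was 0.029 on the log2 scale. Scaling the libraries to equal medians moved it to -0.030 and turned the split to 1053 higher and 1447 lower, and quantile normalization gave 1078 higher and 1270 lower. Without Con-FMT replicate 3, 1671 of 10126 genes (16.5%) were called, 853 higher and 818 lower. Without Con replicate 3 the count was 1212 of 10164 genes (11.9%), 679 higher and 533 lower. A total of 1158 genes, 636 higher and 522 lower, were called with all 6 libraries and also after either of these was left out. In the same fit Con-FMT differed from HS at 1849 genes (18.2%) and from A10-FMT at 1401 genes (13.8%). These shares of all genes are the background for the counts of called list members given below.

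**Figure D2:**
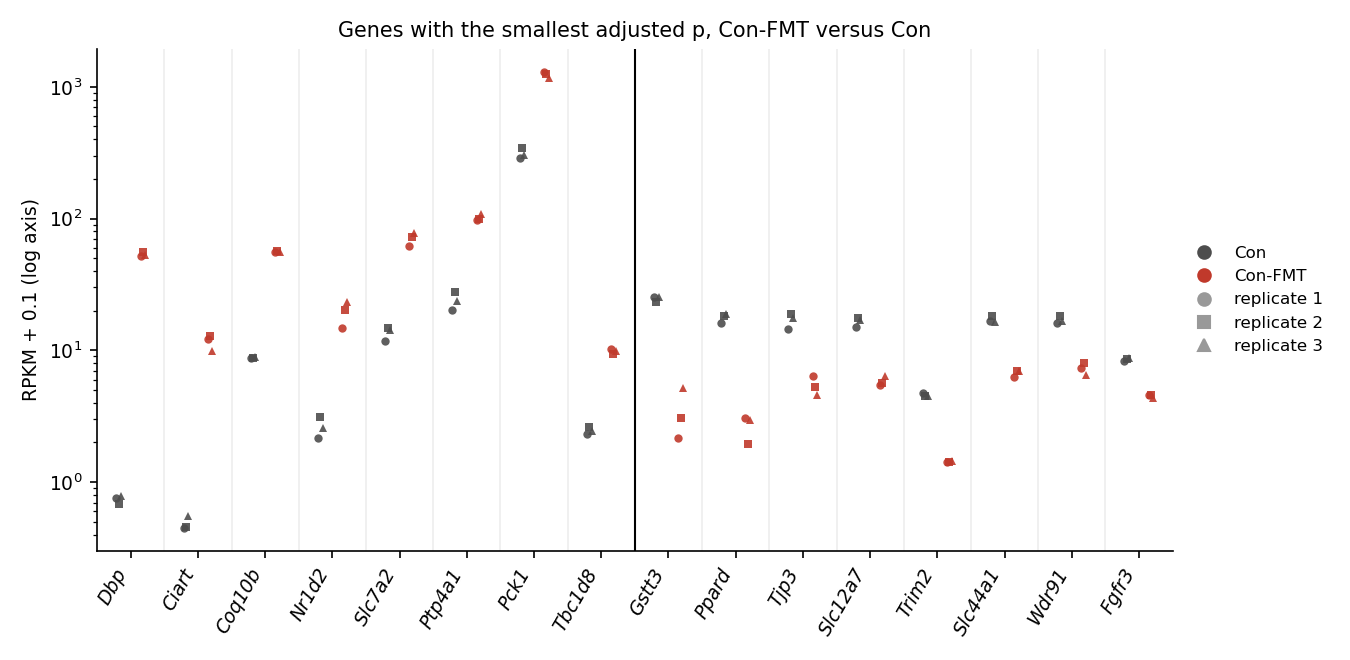
RPKM + 0.1 on a log axis in each Con (grey) and Con-FMT (red) library for the 8 genes with the smallest adjusted p in each direction, higher in Con-FMT left of the line and lower right of it. The symbols mark the replicates. A gene could be picked only if its Con and Con-FMT libraries did not overlap, so the gap between the groups follows from that choice.

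The clock list held the gene with the largest rise of all tested, Dbp. Of 19 tested clock genes, 10 were higher and 5 lower in Con-FMT, with a median change of 0.69. Leaving out either Con-FMT replicate 3 or Con replicate 3 gave 9 higher and 5 lower each time. Dbp, an output transcription factor of the clock, measured 0.66, 0.58 and 0.68 RPKM in Con and 51.84, 55.47 and 52.99 RPKM in Con-FMT. Its mean was 83.5 times the Con mean, and the log2 change was 5.05 (SE 0.217, adjusted p = 7.36e-07). The 2 groups were thus far apart and each was tight. Ciart, a repressor of the clock, went from 0.35, 0.36 and 0.45 RPKM to 12.18, 12.69 and 9.79 RPKM (log2 change 3.17, adjusted p = 6.04e-06). Nr1d1 and Nr1d2 encode the REV-ERB receptors that repress Arntl. Nr1d1 measured 1.22, 3.68 and 2.72 RPKM in Con and 24.73, 56.88 and 46.35 in Con-FMT (log2 change 3.61, adjusted p = 5.91e-05), and Nr1d2 rose by 2.52 (adjusted p = 9.92e-06). The period gene Per1 rose by 2.62 (adjusted p = 5.55e-04). The members that follow were named after their values had been seen. On the log2 scale Per3 rose by 1.65, Tef by 2.04 and Usp2 by 1.90, and the activators were lower. Arntl, which encodes BMAL1, measured 10.11, 12.9 and 12.15 RPKM in Con and 4.92, 1.26 and 1.59 in Con-FMT (log2 change -1.96, adjusted p = 0.00345), with no overlap. Npas2, the CLOCK paralog, changed by -1.75 (adjusted p = 1.61e-04).

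Con-FMT differed from HS at 13 of the 19 genes (10 higher, 3 lower), beside 18.2% of all genes, and from A10-FMT at 2 (1 higher, 1 lower), beside 13.8%. Dbp measured 1.79, 2.22 and 1.17 RPKM in HS and 98.8, 48.8 and 86.16 RPKM in A10-FMT. Against HS the log2 difference of Dbp was 4.34 (adjusted p = 3.94e-06), and against A10-FMT it was -0.48 (adjusted p = 0.173). At Dbp both transplant groups thus lay high, and the HS and Con libraries lay low. HS+A10, which had no transplant, was also high there (97.45, 47.26 and 52.8 RPKM, not tested). At Nr1d1 the HS libraries (17.17, 20.12 and 26.96 RPKM) were above Con (log2 difference 2.71, adjusted p = 0.00158). Con-FMT against HS did not pass the threshold at Nr1d1 (adjusted p = 0.0714). The hour at which livers were taken and the feeding state at that hour are not given in the sources used here, and their part in the clock values was not tested.

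**Figure D3:**
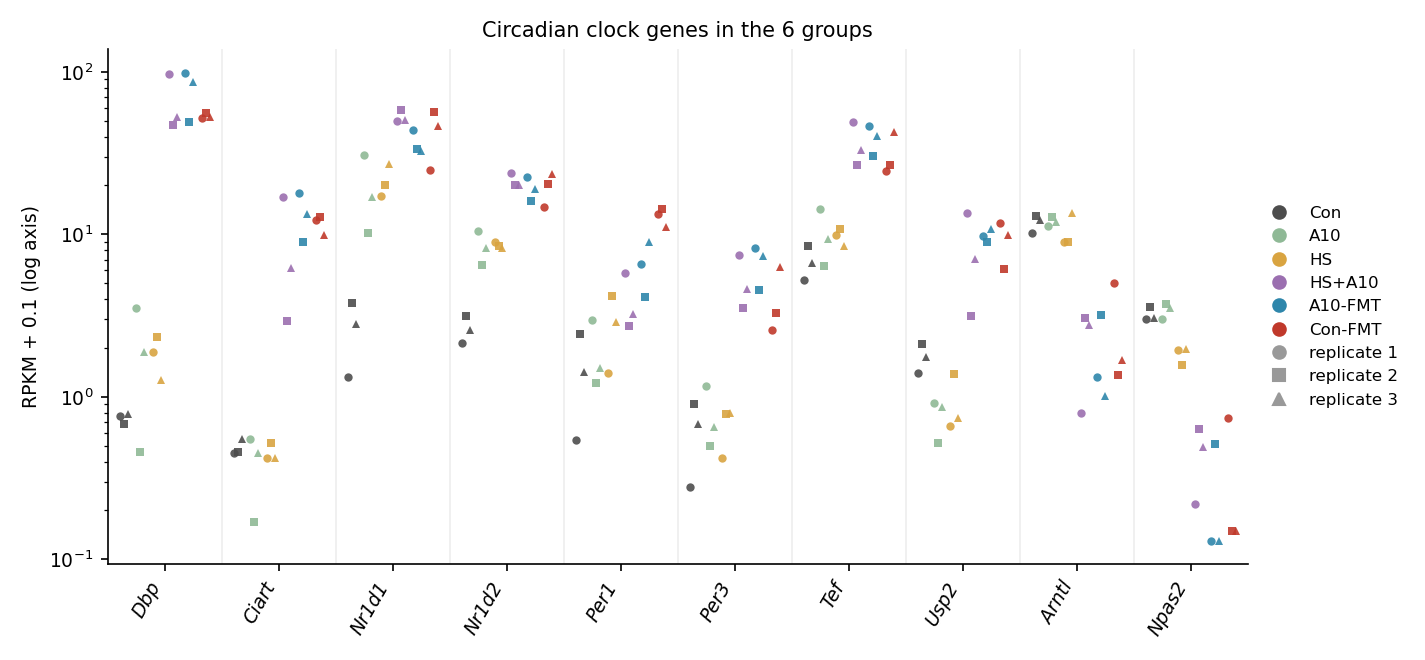
RPKM + 0.1 on a log axis of 10 clock genes in each of the 3 libraries of the 6 groups, with colour for the group and the symbol for the replicate. For Dbp and Ciart the libraries of HS+A10, A10-FMT and Con-FMT lie above all those of Con, A10 and HS, and for Arntl they lie below.

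The E-box CACGTG, the sequence that ARNTL and CLOCK bind, was looked up on either strand in the 300 bases around each gene's RefSeq start (250 before and 50 after, build GRCm38.p6). It was present for 4 of the 16 clock genes with such a window (25%), among them Per1 and Ciart, and for 12% of the 8094 tested genes with a window. Ciart held 3 matches and is shown because its level moved among the most, with each E-box in capitals.
Ciart, chr3:95882179-95882478, minus strand: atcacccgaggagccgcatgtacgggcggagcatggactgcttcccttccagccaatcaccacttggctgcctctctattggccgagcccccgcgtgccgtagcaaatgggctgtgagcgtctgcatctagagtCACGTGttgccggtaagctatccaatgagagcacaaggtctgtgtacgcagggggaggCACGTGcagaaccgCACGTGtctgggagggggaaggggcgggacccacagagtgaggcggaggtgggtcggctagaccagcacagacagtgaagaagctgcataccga

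Genes of cholesterol synthesis and uptake were lower as a group. All 25 were tested and all 25 had a negative change, with a median of -2.04 against 0.029 over all genes, and 19 fell past the threshold while 0 rose. Their summed level was 1670 to 2229 RPKM in Con and 372.7 to 702.4 RPKM in Con-FMT. Sqle, squalene epoxidase, measured 37.84, 47.6 and 44.49 RPKM in Con and 9.73, 2.58 and 0.62 RPKM in Con-FMT. Its log2 change was -3.48 (SE 0.958, adjusted p = 0.0256). Fdps, which makes farnesyl diphosphate, measured 224.8, 347.1 and 300.7 RPKM in Con and 73.61, 21.04 and 14.14 RPKM in Con-FMT (log2 change -3.30, adjusted p = 0.0223). Hmgcs1, which makes HMG-CoA, measured 171.8, 193 and 175.4 RPKM in Con and 43.45, 13.57 and 10.49 in Con-FMT (log2 change -3.21, adjusted p = 0.0077). At these 3 genes no Con-FMT library reached the Con range, and Con-FMT replicate 1 was the highest of its group. Idi1, an isomerase of the pathway named after its values were seen, was not called (-1.81, adjusted p = 0.234), and its Con-FMT replicate 1 (38.1 RPKM) lay within the Con range of 36.96 to 43.17. Without Con-FMT replicate 3, 11 of the 25 fell past the threshold, and the same number did without Con replicate 3. The adjusted p of Sqle was then 0.0818 and 0.0738, and that of Fdps 0.07 and 0.0674. Con-FMT was lower than HS at 3 of the 25 genes, higher at 0, and differed from A10-FMT at 0 of them. Of all genes, 18.2% and 13.8% differed from those groups.

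Hmgcs1 was the only member, of 17 with a promoter window, that held the sterol regulatory element written as TCACNCCAC on either strand (5.88%, beside 1.54% of tested genes). The stretch is shown with that element in capitals.
Hmgcs1, chr13:119690101-119690400, plus strand: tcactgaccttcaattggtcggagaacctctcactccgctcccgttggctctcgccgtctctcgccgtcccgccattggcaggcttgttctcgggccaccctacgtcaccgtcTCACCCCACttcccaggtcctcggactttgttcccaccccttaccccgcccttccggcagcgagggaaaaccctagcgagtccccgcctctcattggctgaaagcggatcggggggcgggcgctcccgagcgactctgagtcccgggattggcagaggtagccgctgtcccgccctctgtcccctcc

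Of 21 genes of fatty acid and triglyceride synthesis, 11 fell and 3 rose, with a median change of -0.76. Scd1, the desaturase that makes oleate, measured 676.2, 815.2 and 740 RPKM in Con and 21.54, 12.74 and 21.54 RPKM in Con-FMT. The Con mean was 40.0 times the Con-FMT mean, and the log2 change was -5.28 (SE 0.695, adjusted p = 5.52e-04), the most negative of all tested genes. Scd1 averaged 43 RPKM in HS, and the difference between Con-FMT and HS did not pass the threshold (log2 -0.98, adjusted p = 0.351). Fasn, fatty acid synthase, measured 40.49, 72.11 and 57.14 RPKM in Con and 12.4, 5.47 and 7.84 in Con-FMT (log2 change -2.62, adjusted p = 0.0147, and 0.0502 without Con replicate 3). After their values were seen, Acss2, which activates acetate (-2.32, adjusted p = 0.00187), and Acacb, acetyl-CoA carboxylase 2 (-2.54, adjusted p = 5.54e-04), were also singled out. The 3 that rose were Dgat2, which completes triglyceride synthesis, and Lpin1 and Lpin2, phosphatidate phosphatases of which Lpin1 also acts as a coactivator of fat oxidation genes. Lpin1 measured 4.2, 5.94 and 5.22 RPKM in Con and 114.1, 118.1 and 108.4 RPKM in Con-FMT, a mean 22.2 times as high (log2 change 4.24, adjusted p = 2.63e-04). Its means of 9.22 RPKM in HS and 24 RPKM in A10-FMT were both below Con-FMT (adjusted p = 0.00104 and 0.0112). Without Con-FMT replicate 3 the list counted 8 lower, and without Con replicate 3 it counted 6 lower, with 3 higher each time.

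All 18 mitochondrial beta-oxidation genes had a positive change, with a median of 0.51, while 5 of them rose past the threshold and 13 did not pass, beside 20.4% of all genes called and 11.2% called higher. Cpt1a, which admits long-chain fatty acids to the mitochondrion, measured 39.91, 42.94 and 40.46 RPKM in Con and 88.99, 76.56 and 90.41 in Con-FMT (log2 change 1.03, adjusted p = 0.00364). Hadhb, a subunit of the trifunctional protein, rose by 0.74 (adjusted p = 0.0131). Without Con-FMT replicate 3 or without Con replicate 3, 2 of the 18 were called, which is no larger a share than the 16.5% and 11.9% of all genes. Of 20 peroxisomal genes 18 had a positive change, and 4 rose and 0 fell, beside the same shares of all genes. Without Con-FMT replicate 3, 5 rose, and without Con replicate 3, 2 rose. The 4 that rose with all libraries included Slc27a2, a very-long-chain acyl-CoA synthetase (1.01, adjusted p = 0.0051), and the thiolase Acaa1a (0.70, adjusted p = 0.0109). Of 23 targets of the fatty acid receptor PPAR alpha, 4 rose and 2 fell, beside 20.4% of all genes called. The counts were 3 and 2 without Con-FMT replicate 3, and 1 and 2 without Con replicate 3. Angptl4, an inhibitor of lipoprotein lipase, rose from 17.31, 25.04 and 21.28 RPKM to 73.3, 64.71 and 100.6 RPKM (log2 change 1.85, adjusted p = 0.00137), and Pdk4, which switches off pyruvate dehydrogenase, changed by -1.09 (adjusted p = 0.00388). Cyp4a10, an omega-hydroxylase named after its values were seen, measured 47.71, 8.84 and 13.31 RPKM in Con-FMT against 1.29, 2.76 and 2.77 in Con and 153 on average in HS (log2 change from Con 2.57, adjusted p = 0.0538). Con-FMT differed from HS at 0 of the 18 mitochondrial genes, beside 18.2% of all genes. Ppard, a nuclear receptor related to PPAR alpha, measured 15.97, 18.07 and 18.74 RPKM in Con and 2.99, 1.85 and 2.85 in Con-FMT (log2 change -2.40, adjusted p = 4.83e-05), and 3.47 on average in HS.

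Gluconeogenic genes rose, 9 of 14 with 0 lower and a median change of 0.80, and 9 and 8 rose without Con-FMT replicate 3 and without Con replicate 3. Pck1, which makes phosphoenolpyruvate, measured 287.2, 342.5 and 302.4 RPKM in Con and 1294, 1248 and 1159 in Con-FMT. Its mean was 3.97 times the Con mean (log2 change 1.99, SE 0.128, adjusted p = 9.83e-06), and the libraries of both groups lay close together. The amino acid catabolic enzymes Sds (1.34, adjusted p = 0.0016), Got1 (1.29, adjusted p = 0.0103) and Tat (1.28, adjusted p = 0.00331) rose as well. Con-FMT was higher than HS at 1 of the 14 genes and higher than A10-FMT at 4, with 0 lower. Of all genes, 18.2% and 13.8% differed from those groups in either direction. Slc7a2, a carrier of cationic amino acids and outside the list, measured 11.69, 14.66 and 14.08 RPKM in Con and 61.6, 72.65 and 77.22 in Con-FMT (log2 change 2.30, adjusted p = 8.04e-06).

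In the insulin signalling list 7 of 19 genes rose and 0 fell, beside 20.4% of all genes called and 11.2% called higher. The 7 were Ptpn1, Foxo1, Foxo3, Irs2, Trib3, Socs3 and Igfbp1. Without Con-FMT replicate 3, 8 rose, and without Con replicate 3, 7 rose, with 0 lower each time. After median scaling 7 were called higher and 3 lower. Igfbp1, a secreted binder of insulin-like growth factors that insulin represses, measured 18.1, 24.01 and 21.78 RPKM in Con and 92.3, 273 and 139.1 in Con-FMT (log2 change 2.79, adjusted p = 0.004). Socs3, an inhibitor of cytokine and insulin receptors, rose by 2.48 (adjusted p = 0.00186). Irs2, the substrate of the insulin receptor (1.34, adjusted p = 5.74e-04), and Foxo1, the factor that drives gluconeogenic genes (0.83, adjusted p = 1.78e-04), were named after their values were seen. All 4 were also above HS, at an adjusted p of 0.0201, 0.00369, 0.0153 and 0.00202. Across the 19 genes Con-FMT was higher than HS at 7 and lower at 4, beside 18.2% of all genes that differed. Among glycolysis and glycogen genes 5 of 23 rose and 1 fell, a share near the 20.4% of all genes called, with a median of 0.10. The counts were 4 and 2 without Con-FMT replicate 3, and 4 and 0 without Con replicate 3. Pfkfb3, which makes the activator of glycolysis fructose 2,6-bisphosphate, measured 2.19, 2.42 and 2.6 RPKM in Con and 28.55, 29.07 and 29.13 in Con-FMT (log2 change 3.14, adjusted p = 2.56e-04). It averaged 3.3 RPKM in HS and 10 RPKM in A10-FMT, both below Con-FMT (adjusted p = 7.62e-04 and 0.0145).

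**Figure D4:**
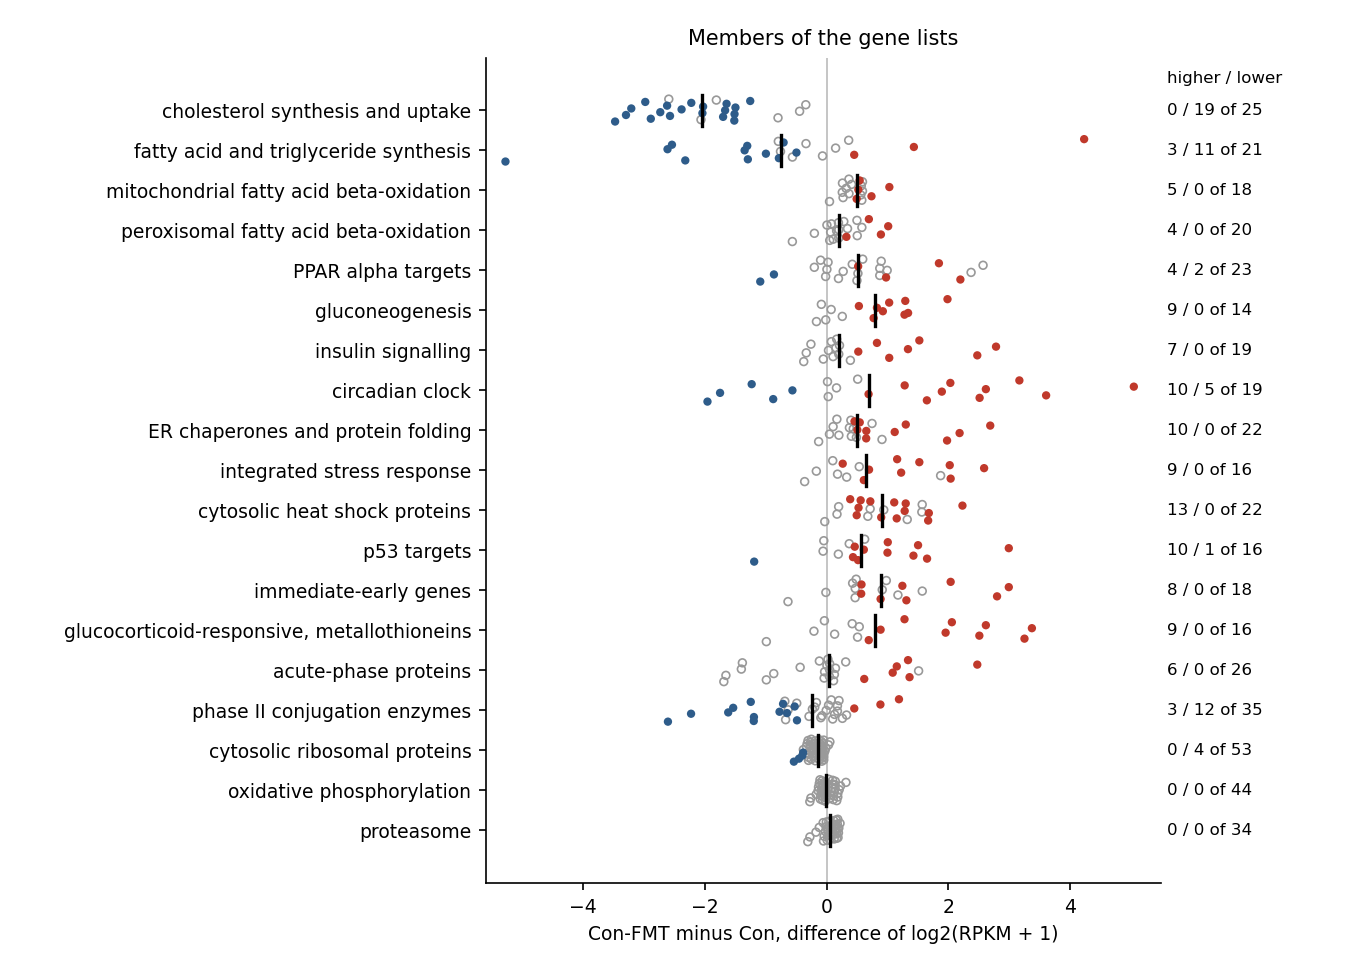
Change from Con to Con-FMT, as the difference of log2(RPKM + 1), for every tested member of 19 gene lists. Filled points passed an adjusted p under 0.05 (red higher, blue lower), open points did not, the black bar is the median, and the counts at the right give genes higher and lower of those tested, from 0 and 19 of 25 for cholesterol genes to 0 and 0 of 34 for the proteasome.

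Genes of protein folding in the endoplasmic reticulum (ER) were higher in Con-FMT than in any of the other 3 groups of the fit at several members. Against Con, 10 of 22 rose and 0 fell, with a median of 0.50, and 7 and 6 rose without Con-FMT replicate 3 and without Con replicate 3. Herpud1, which takes part in the degradation of misfolded ER proteins, measured 68.8, 79.52 and 74.97 RPKM in Con and 549.8, 439.5 and 474 in Con-FMT. Its mean was 6.55 times the Con mean (log2 change 2.69, SE 0.202, adjusted p = 2.64e-05). The HS libraries lay between 87.06 and 166.2 RPKM and those of A10-FMT between 151 and 203.5, all below Con-FMT (adjusted p = 3.65e-04 and 0.00148). Dnajb9, an ER co-chaperone, measured 28.12, 23.02 and 25.13 RPKM in Con and 127.1, 107.8 and 123.1 in Con-FMT (log2 change 2.19, adjusted p = 2.0e-04). Creld2, a secreted ER stress protein, measured 34.9, 22.02 and 31.88 RPKM in Con and 164.2, 106.2 and 93.55 in Con-FMT (log2 change 1.98, adjusted p = 0.0049). Of members named after their values were seen, Hspa5, the major ER chaperone BiP, rose by 1.12 (adjusted p = 0.021, up to 0.0756 when 1 library was left out) and Syvn1, the ubiquitin ligase of ER-associated degradation, by 1.30 (adjusted p = 0.00465). Con-FMT was higher than HS at 7 of the 22 genes and higher than A10-FMT at 21 of them, beside 18.2% and 13.8% of all genes that differed from those groups in either direction. Pancreatic acinar cells also express such chaperones, and without Con-FMT replicate 3 the log2 change of Herpud1 was 2.71.

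The ER stress element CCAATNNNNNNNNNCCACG, read on both strands, occurred in the window of 8 of the 19 ER genes that had one (42.1%) and of 0.185% of the 8094 tested genes with a window. The 8 were Hspa5, Hsp90b1, Calr, Canx, Pdia6, Dnajc3, Creld2 and Syvn1, of which Hsp90b1, Calr and Canx were not called. The windows of 3 called members are shown with the element in capitals, in the reverse orientation for Creld2.
Hspa5, chr2:34771840-34772139, plus strand: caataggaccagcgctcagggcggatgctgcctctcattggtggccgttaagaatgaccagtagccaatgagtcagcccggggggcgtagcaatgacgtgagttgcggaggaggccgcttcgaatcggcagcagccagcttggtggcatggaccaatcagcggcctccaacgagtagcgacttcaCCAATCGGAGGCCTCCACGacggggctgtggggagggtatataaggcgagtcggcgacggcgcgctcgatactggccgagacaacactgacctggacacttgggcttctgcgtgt
Creld2, chr15:88819396-88819695, plus strand: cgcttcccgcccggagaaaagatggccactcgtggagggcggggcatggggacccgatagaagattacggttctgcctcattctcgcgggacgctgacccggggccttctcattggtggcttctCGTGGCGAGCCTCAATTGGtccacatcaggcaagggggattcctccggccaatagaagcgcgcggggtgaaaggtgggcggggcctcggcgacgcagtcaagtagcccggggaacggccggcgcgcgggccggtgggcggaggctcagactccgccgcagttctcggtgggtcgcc
Syvn1, chr19:6046326-6046625, plus strand: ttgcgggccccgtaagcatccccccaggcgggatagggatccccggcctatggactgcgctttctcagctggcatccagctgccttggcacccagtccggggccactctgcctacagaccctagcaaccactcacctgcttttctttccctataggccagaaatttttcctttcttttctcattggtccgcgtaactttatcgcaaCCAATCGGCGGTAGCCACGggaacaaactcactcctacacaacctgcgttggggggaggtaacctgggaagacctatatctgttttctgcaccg

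Of 16 genes of the integrated stress response, which slows translation when proteins or amino acids fail, 9 rose and 0 fell. Of all genes, 20.4% were called and 11.2% called higher. Without Con-FMT replicate 3, 8 of the 16 rose, and 7 rose without Con replicate 3 or after median scaling. Chac1, which degrades glutathione, measured 1.18, 0.65 and 1.03 RPKM in Con and 6.51, 11.69 and 15.77 in Con-FMT (log2 change 2.59, adjusted p = 3.52e-04), and the stress hormone Gdf15 rose by 2.03 (adjusted p = 6.63e-04). Of 22 cytosolic heat shock genes 13 rose and 0 fell, with a median of 0.92, and 11 and 8 rose without Con-FMT replicate 3 and without Con replicate 3. Hspa8, the constitutive HSC70, measured 288.2, 570.9 and 445.5 RPKM in Con and 1418, 1328 and 1263 in Con-FMT (log2 change 1.67, adjusted p = 0.00566). The chaperone Hsph1 (2.23) and the co-chaperone Bag3 (1.68) each had an adjusted p of 0.0188, which reached 0.0661 and 0.07 without Con replicate 1. Con-FMT was higher than HS at 3 of the 22 heat shock genes and higher than A10-FMT at 15, with 0 lower. In either direction 18.2% and 13.8% of all genes differed from those groups. Of 16 targets of the tumour suppressor p53, 10 rose and 1 fell. The counts were 9 and 1 without Con-FMT replicate 3, and 8 and 1 without Con replicate 3. Btg2, which restrains proliferation, measured 2.07, 1.46 and 1.66 RPKM in Con and 20.46, 24.19 and 17.89 in Con-FMT (log2 change 3.00, adjusted p = 5.45e-04). Ccng1 and Aen, named after their values were seen, rose by 1.00 and 1.01 (adjusted p = 8.43e-05 and 1.62e-04), with HS means of 21.3 and 14.6 RPKM beside Con-FMT values of 20.02 to 21.5 and 12.78 to 14.95. Cdkn1a, the p53 target p21, was not called (0.63, adjusted p = 0.124). Bbc3, the pro-apoptotic PUMA, fell by 1.19 (adjusted p = 0.0032).

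**Figure D5:**
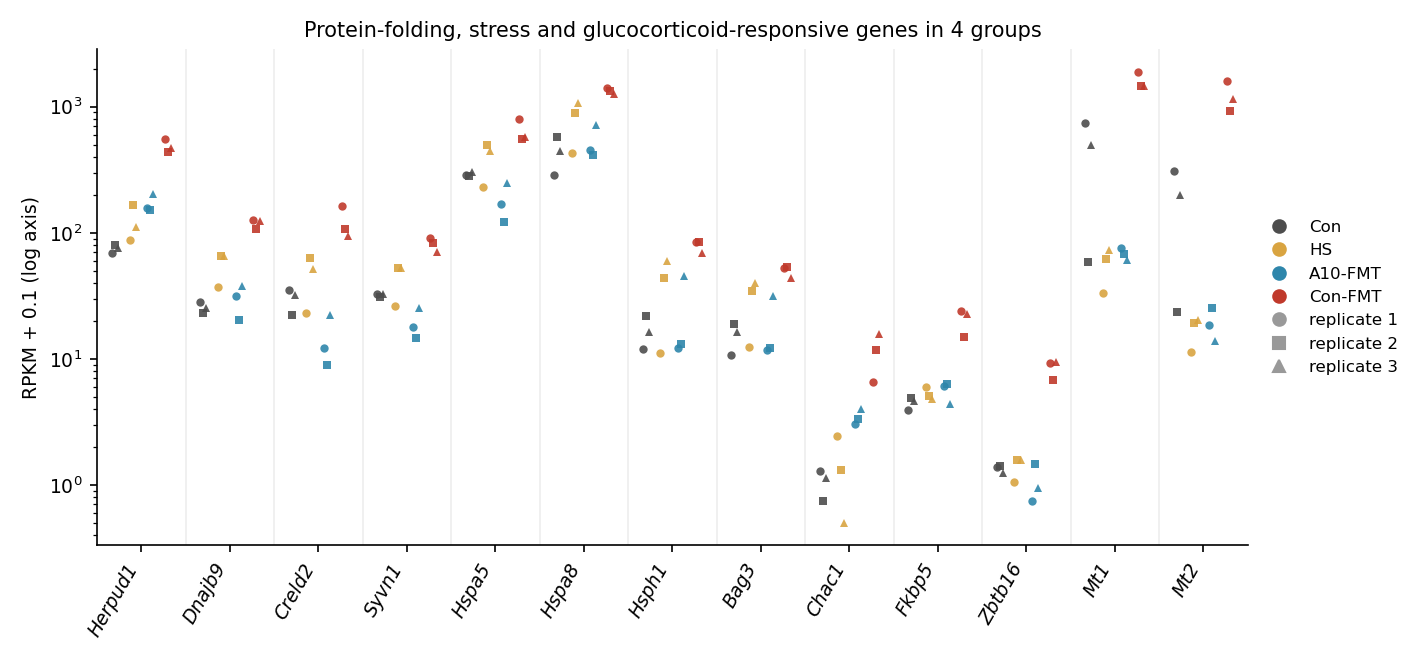
RPKM + 0.1 on a log axis of 13 protein-folding, stress and glucocorticoid-responsive genes in each library of 4 groups, Con-FMT among them, with colour for the group and the symbol for the replicate. The 3 Con-FMT libraries are the highest of the 12 for Herpud1, Zbtb16, Fkbp5 and Mt2.

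Of 16 glucocorticoid-responsive genes and metallothioneins, 9 rose and 0 fell, with a median of 0.79, and 8 rose after leaving out either Con-FMT replicate 3 or Con replicate 3. Zbtb16, a transcription factor induced by glucocorticoids and named after its values were seen, measured 1.28, 1.32 and 1.15 RPKM in Con and 9.24, 6.75 and 9.41 in Con-FMT (log2 change 2.06, adjusted p = 2.71e-05). Its HS libraries lay between 0.96 and 1.48 RPKM and those of A10-FMT between 0.65 and 1.36. Fkbp5, the co-chaperone of the glucocorticoid receptor chosen in the same way, measured 3.85, 4.83 and 4.54 RPKM in Con and 23.97, 14.72 and 22.41 in Con-FMT (log2 change 1.96, adjusted p = 6.56e-05). It averaged 5.17 RPKM in HS and 5.48 in A10-FMT. The other 7 members of the list were not called. Among them, also named after their values were seen, were Tsc22d3 (0.13, adjusted p = 0.796) and Sgk1 (0.42, adjusted p = 0.279). Ddit4 (0.54, adjusted p = 0.145) and Lcn2 (-0.99, adjusted p = 0.52) were 2 more. Mt2, a zinc-binding metallothionein, measured 311.5, 23.35 and 199.8 RPKM in Con and 1599, 928 and 1152 in Con-FMT (log2 change 3.38, adjusted p = 0.00774), and its HS and A10-FMT means were 16.8 and 19.3 RPKM. The Con libraries spread widely at Mt2, with replicate 1 highest and replicate 3 between the others. Gadd45g, a stress-induced growth arrest gene, rose by 3.25 (adjusted p = 0.00258). Slc39a14, a zinc and iron importer of the iron list, rose by 1.57 (adjusted p = 7.66e-05) and was above HS and A10-FMT (adjusted p = 4.79e-04 and 0.00107). Of 18 immediate-early genes 8 rose and 0 fell (6 rose without Con replicate 3), led beside Btg2 by Junb, a subunit of the AP-1 factor (2.80, adjusted p = 0.00148). It measured 35.52, 63.88 and 115.8 RPKM in Con-FMT against 7.7 to 9.24 in Con.

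Of 26 acute-phase genes 6 rose and 0 fell, beside 20.4% of all genes called and 11.2% called higher. Without Con-FMT replicate 3 or without Con replicate 3, 4 rose. The median change of the 26 was 0.05 and turned to -0.02 after median scaling. The 6 that rose included Il6ra, a receptor chain for interleukin 6 (1.34, adjusted p = 7.3e-04), and Steap4, a metalloreductase (1.36, adjusted p = 0.0384). Steap4 lost the call without Con-FMT replicate 3 (adjusted p = 0.122) and without Con replicate 3 (adjusted p = 0.0724). Con-FMT was higher than HS at 6 of the 26 genes and higher than A10-FMT at 16, with 0 lower in either comparison. Of all genes, 18.2% and 13.8% differed from those groups in either direction. Saa1, the serum amyloid named after its values were seen, measured 6422, 296.1 and 3570 RPKM in Con and 1001, 1815 and 1519 in Con-FMT. The Con-FMT libraries lay inside the Con range (log2 change -0.43, adjusted p = 0.778). Of 29 complement and coagulation genes 2 rose (1 without either Con-FMT replicate 3 or Con replicate 3), led by Mbl2, a mannose-binding lectin (0.92, adjusted p = 8.43e-05). Of 24 interferon-stimulated genes 1 fell, and of 20 antigen presentation genes 1 fell. The Kupffer cell and macrophage markers summed to 148.8 to 223.1 RPKM in Con and 147 to 227.5 in Con-FMT, and 0 of 12 were called. In whole liver, fewer cells of a type and less RNA per cell cannot be told apart.

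Of 35 phase II conjugation enzymes 12 fell and 3 rose, with a median of -0.23, beside 20.4% of all genes called. Without Con-FMT replicate 3 and without Con replicate 3, 9 and 7 fell, with 1 higher each time. Gstt3, a glutathione transferase, measured 25.36, 23.02 and 25.19 RPKM in Con and 2.06, 2.95 and 5.06 in Con-FMT (log2 change -2.61, adjusted p = 6.9e-05). Gstm3 fell by 2.23 (adjusted p = 0.00398). Gstp3, outside the list, went the other way, from 19.32, 48.31 and 38.01 RPKM to 1064, 564.5 and 748.2 RPKM (log2 change 4.50, adjusted p = 0.0238), and lost the call without Con-FMT replicate 3 (adjusted p = 0.0516) and without Con replicate 3 (adjusted p = 0.0636). Reads of such near-identical family members may have been split or shared in the counting. Among 27 cytochromes P450 of families 1 to 3, 4 rose and 5 fell, beside 20.4% of all genes called. The counts were 2 and 3 without Con-FMT replicate 3, and 2 and 2 without Con replicate 3. Cyp2c37 rose by 1.81 (adjusted p = 0.00455), and Cyp3a11 changed by -1.46 (adjusted p = 0.0287), with an adjusted p of up to 0.101 when 1 library was left out. Cyp3a11, the main drug-oxidizing CYP3A, measured 1640 RPKM in Con-FMT replicate 3 and 533 and 503.3 in the others. Of 18 retinoid genes 3 rose and 5 fell, beside the same share of all genes. The counts were 3 and 5 without Con-FMT replicate 3, and 3 and 4 without Con replicate 3. Cyp26a1, which breaks down retinoic acid and is induced by it, measured 34.97, 32.12 and 38.35 RPKM in Con and 1.02, 1.22 and 3.76 in Con-FMT (log2 change -3.70, adjusted p = 0.00417). Of 18 major urinary proteins, pheromone carriers that share much of their sequence, 4 fell and 0 rose. Of all genes, 20.4% were called and 9.15% called lower. Without Con-FMT replicate 3, 2 of the 18 fell, and without Con replicate 3, 3 fell. Mup2 was among the 4 (-2.51, adjusted p = 0.00722). Of 21 bile acid genes 4 rose and 1 fell, with a median of -0.001, a share near the 20.4% of all genes called. The counts were 4 and 0 without Con-FMT replicate 3, and 2 and 0 without Con replicate 3. Cyp7a1, the rate-limiting enzyme of bile acid synthesis, measured 30.72, 24.27 and 27.53 RPKM in Con and 38.68, 33.08 and 15.86 in Con-FMT, whose range spans that of Con.

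Several genes outside the lists were among those with the smallest p. Coq10b, which binds coenzyme Q in mitochondria, measured 8.71, 8.61 and 8.78 RPKM in Con and 55.56, 57.14 and 55.38 in Con-FMT (log2 change 2.56, adjusted p = 3.43e-06). Ptp4a1, a tyrosine phosphatase, rose by 2.06 with the same adjusted p of 3.43e-06, and Tbc1d8, with a Rab GTPase-activating domain, by 1.68 (adjusted p = 9.92e-06). Coq10b, Ptp4a1 and Tbc1d8 were above both HS (adjusted p = 5.11e-05, 1.76e-05 and 6.07e-04) and A10-FMT (adjusted p = 0.00584, 8.51e-05 and 8.51e-05). Trim2, a ubiquitin ligase, measured 4.65, 4.44 and 4.39 RPKM in Con and 1.32, 1.33 and 1.34 in Con-FMT (log2 change -1.24, adjusted p = 3.31e-05). Slc12a7, a potassium-chloride cotransporter (-1.37), Wdr91, an endosomal protein (-1.14), and Slc44a1, a choline carrier (-1.24), each fell with an adjusted p of 4.83e-05, and the tight junction protein Tjp3 (-1.50, adjusted p = 5.0e-05) and the growth factor receptor Fgfr3 (-0.81, adjusted p = 5.89e-05) fell too. A two-sided exact permutation test of 3 against 3 libraries cannot go below p = 0.1 for any single gene. Rgs16, a regulator of G protein signals, measured 0.52, 1.91 and 1.59 RPKM in Con and 37.93, 19.21 and 156.6 in Con-FMT (log2 change 4.47, adjusted p = 4.88e-04). Cck, the hormone cholecystokinin, measured 1.35, 3.39 and 2.16 RPKM in Con and 103.2, 26.03 and 64.58 in Con-FMT (log2 change 4.16, adjusted p = 1.8e-04), beside means of 40.6 in HS and 39 in A10-FMT.

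Few genes of the basic cell machinery were called. Of 44 oxidative phosphorylation genes and 34 proteasome genes 0 were called, with medians of -0.01 and 0.06, and the proteasome median turned to -0.01 after median scaling. Of 53 cytosolic ribosomal proteins 51 had a negative change, with a median of -0.15, and 4 fell past the threshold, 0 without Con-FMT replicate 3 and 0 without Con replicate 3. Hnf4a, the master regulator of hepatocyte genes, measured 101.8, 108.9 and 107.1 RPKM in Con and 177.4, 178.2 and 197 in Con-FMT (log2 change 0.79, adjusted p = 1.78e-04). Of the liver genes that the study singled out, Gpx1, a glutathione peroxidase, rose by 0.45 (adjusted p = 0.00599). Nr1h3, the liver X receptor (0.09, adjusted p = 0.474), Nr1h4, the bile acid receptor (0.09, adjusted p = 0.69), Bax, a pro-apoptotic factor (0.19, adjusted p = 0.43), Rbp4, the plasma retinol carrier (0.39, adjusted p = 0.061), and the oxidation genes Acaa2 (0.37, adjusted p = 0.121) and Acox2 (0.20, adjusted p = 0.333) did not pass the threshold. Dhrs9, a retinol dehydrogenase, and Bcl2, an inhibitor of apoptosis, lay at or below 0.21 RPKM in all 6 libraries and were not tested.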

How the data were processed

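Oligo(dT)-enriched mRNA of mouse liver was sequenced by the authors, 3 libraries in each of 6 groups, and the deposited table gives RPKM per gene, to 2 decimals, for 19057 symbols. Per the labels' processing notes, reads were aligned with Bowtie 0.12.2 to mm10; the study's methods name SOAPaligner instead, and which made the table is not known. Whole reads were not recovered from the RPKM. Relative depth, estimated from the smallest steps of 1557 low genes, was 0.972 to 1.06 in Con and 1.06 in each Con-FMT library, with total depth unknown, so no counting interval is given.

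Values were tested as log2(RPKM + 1) with limma 3.58.1 (R 4.3.3), with group as the only factor, a variance trend and Benjamini-Hochberg adjustment over all tested genes. The fit held the 12 libraries of Con, HS, A10-FMT and Con-FMT, which share 1 estimate of spread, and genes averaging at least 1 RPKM in them. Calls used an adjusted p under 0.05. A log2 change on this scale understates the change of low genes. Called means past this threshold, and rose or fell is used only of called genes.

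The 51 gene lists and the genes were chosen with earlier results of these data known. Genes are named by these rules: among called genes without overlap, the 8 with the smallest adjusted p and the 5 with the largest change in each direction, up to 3 called members with the largest change from each list, the study's genes and the acinar markers. Others are marked as named after their values were seen. Symbols turned into dates (26) or listed more than once (3) were not named. Promoter windows came from RefSeq (GRCm38.p6). The script was tested on simulated data. The authors' own DEGseq comparisons were not used. Some genes that meet these rules are not reported here.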

Additional observations from a re-analysis of the deposited data

Results flagged for a closer look

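In the HS+A10 group, which enters no comparison here, all 3 libraries lay at more than 2 times the highest Con library for 3 clock genes, with a mean RPKM of 65.84 for Dbp, 52.97 for Nr1d1 and 8.61 for Ciart. In the A10 group the same held for Nr1d1 (mean 19.2 RPKM), while the A10 libraries of Dbp measured 3.41, 0.36 and 1.78 RPKM and those of Ciart 0.45, 0.07 and 0.35. Con averaged 0.64 RPKM for Dbp, 2.54 for Nr1d1 and 0.387 for Ciart. These differences were not tested.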

How the results depend on the processing

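The count of 2069 called genes lay between 1806 and 2637 under a pseudocount of 0.1, no filter, equal sums, quantile normalization, median scaling, other sets of libraries in the fit (all 18, or only the 6) and no variance trend. A minimum mean of 5 RPKM gave 509 lower genes, with fewer genes tested, and median scaling gave 1447 lower genes. The stricter threshold of the study, an adjusted p under 0.001 with an absolute log2 change of at least 1, left 147 genes, 94 higher and 53 lower. Leaving out 1 library in turn gave 1212 to 1792 called genes, 679 to 1050 higher and 533 to 818 lower. Con replicate 3 moved the count most, and without Con replicate 1 716 genes were higher. Of the called genes that the text and its rules name (142), 102 kept their call in every alternative fit that tested them. All 142 kept their direction in those fits. These figures leave out the stricter threshold of the study, under which 94 named genes lost their call. The genes whose sign turned were not called in any fit. Cyp7a1 (-0.001 as reported) turned to 0.027 with equal sums, 0.079 without Con replicate 1, 0.002 without Con replicate 3 and 0.374 without Con-FMT replicate 3. Saa1 turned to 0.446 without Con replicate 1 and 0.023 without Con replicate 3. Without Con-FMT replicate 3, Cela1 turned to -0.349 and Nr1h4 to -0.022. Over the omissions of single libraries Cyp7a1 ranged from -0.244 to 0.374, Saa1 from -1.771 to 0.446, Cela1 from -0.349 to 2.423 and Nr1h4 from -0.022 to 0.17. The causes were not tested.

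Same-numbered Con and Con-FMT libraries share only a number: the correlations of their deviations were -0.0998, -0.0611 and -0.0233, and no library correlated best with its own number. A fit with the replicate block called 1835 genes, 989 higher and 846 lower.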
